A study of Mus musculus with 20 samples.

Results

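Activated follicular helper T (Tfh) cells that belong to expanded T cell clones were compared with activated Tfh cells whose receptor was found on no other cell, within the same mouse. The cells were the cluster that the depositors named activated Tfh. The RNA and the T cell receptor (TCR) tables were joined by library and cell barcode. A clone was all receptor cells of a mouse whose listed CDR3α and CDR3β were both identical in amino acids, and its size was counted over all clusters. The table lists few values per field, so for a cell with extra sequences the match is one of the listed entry and not of a known α and β pair. Clones of 5 or more cells were called expanded and clones of 1 cell singletons. Of 28192 cells with RNA and 33833 cells with a paired receptor, 21405 had both. Of these, 9053 were activated Tfh cells, of which 4877 belonged to expanded clones, 2416 to singletons and 1760 to clones of 2 to 4 cells.

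The cells came from 10 C57BL/6 bone marrow chimeras, and each mouse gave 1 RNA and 1 TCR library. In the 5 WT chimeras, irradiated mice were reconstituted with congenic WT marrow and immunized with the hapten protein conjugate NP-OVA in alum at week 6. In the 5 564Igi chimeras, the WT marrow was mixed with marrow of 564Igi mice, whose B cells carry a knocked-in receptor against ribonucleoprotein, and no immunization was given. Recipients were 8 to 10 weeks old at irradiation, and the labels give week 10 after irradiation for the analysis of both groups, while the study's methods also describe a booster dose for immunized chimeras, which the labels do not mention. The WT group held 2 female and 3 male recipients and the 564Igi group 3 and 2. Splenic CD4+CXCR5+PD1+ T cells were sorted. The conditions thus differ in marrow and in antigen, which cannot be told apart. RNA depth was 3424280 to 15241983 UMIs per mouse.

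Tfh cells stay in B cell follicles and germinal centers, where they give B cells CD40 ligand, IL-21 and other signals. Their state is kept by contact with B cells and by signals through the TCR and ICOS, and PD-1 is a mark of repeated receptor signals. Each T cell that leaves the thymus carries its own rearranged receptor, so cells with the same receptor in a mouse are in most cases descendants of a common ancestor. The number of cells with that receptor is a readout of how far the clone has grown. Cells whose S or G2/M phase score passed a limit had been removed by the authors before deposit.

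The label of the cluster was set beside the marker genes of the sorted cells. *Cd3e*, a signaling chain of the TCR complex, had a count in 99.7% of expanded and 99.0% of singleton cells, and *Cd4* in 75.2% and 73.2%. *Pdcd1*, which encodes PD-1, was found in 80.8% and 69.8%, *Icos* in 65.3% and 59.1% and *Cxcr5* in 46.2% and 41.0%. *Bcl6*, the lineage factor of Tfh cells, was found in 10.9% and 11.2%. *Tnfsf8*, the CD30 ligand for which the cluster is known, was found in 63.5% of activated Tfh cells and in 21% of follicular regulatory T (Tfr) cells. *Foxp3*, the lineage factor of regulatory T cells, was found in 7.20% of activated Tfh and 56.0% of Tfr cells. *Tnfsf8* and *Foxp3* thus go with the label, with a minority of *Foxp3*-detected cells inside the cluster. The study named its clusters by these genes in the same data, so this is a description. *Cd4* was found in 74.5% of activated Tfh and 58.8% of Tfr cells. *Pdcd1*, *Icos* and *Bcl6* set the clusters apart less, with 75.8%, 61.7% and 11.3% in activated Tfh and 74.3%, 70.7% and 9.61% in Tfr cells.

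Expanded clones held more than 50% of the activated Tfh cells in 6 of 10 chimeras. Their share of the activated cells with a receptor was 49.9%, 66.2%, 45.6%, 58.5% and 55.0% in WT chimeras 11, 12, 14, 23 and 36. It was 52.0%, 54.1%, 59.9%, 48.3% and 42.3% in 564Igi chimeras 13, 17, 21, 24 and 34. The ranges of the 2 conditions overlapped. WT chimeras had a mean of 55.1% ± 7.92 (SD, n = 5). The mean of the 564Igi chimeras was 51.3% ± 6.56 (SD, n = 5), which differed by -3.74 percentage points (exact permutation test over mice, two-sided, p = 0.444). The number of receptor cells, 2047 to 4695 per mouse, sets how easily another cell of a clone is seen. After all mice had been thinned to the smallest number, the means were 48.7% and 43.8% (exact p = 0.444), and the share was above 50% in 4 of 10 chimeras.

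A chimera gave 227 to 814 expanded cells (median 482.5) from 56 to 109 clones, and 140 to 354 singleton cells (median 245.5). The 801 expanded clones with an activated cell had a median of 4 activated cells, and 307 of them had 5 or more. The largest clone of a mouse had between 22 and 117 activated cells. Clones were not confined to the cluster. Of the 307 clones with 5 or more activated cells, 51 had all their RNA cells in it and the median clone had 77.3% there. In 211 of them a sister cell lay in the *Sostdc1* Tfh cluster, in 142 in Tfr, in 47 each in effector and interferon-stimulated Tfh, and in 2 in central memory Tfh.

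Mouse identity of the clones was checked on the cell barcodes. Of the receptor cells, 1381 carried a barcode that also occurred in another library, and 0 of these shared the CDR3 pair with the cell of that barcode. Among RNA cells 988 carried a barcode of another library. Of 15608 CDR3 pairs, 21 were found in 2 mice and 3 in 3 mice.

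A family of receptors with the same segments and CDR3 lengths supplied the largest activated clone of a WT and of a 564Igi chimera. Its CDR3 sequences are printed here to show the bases at which its clones differed. The family was picked out after its values were seen. Since it is defined by segments and lengths, much of each sequence was bound to be the same. Its cells used the V and J segments TRAV4D-4 and TRAJ22 for the α chain and TRBV13-1 and TRBJ2-7 for the β chain, with CDR3 lengths of 42 and 45 bases. In GRCm38, with the GENCODE vM21 annotation, TRAV4D-4 lies at chr14:52990866-52991389 and TRAJ22 at chr14:54197248-54197307. TRBV13-1 lies at chr6:41116007-41116468 and TRBJ2-7 at chr6:41543810-41543856, all on the plus strand. Of 10977 combinations of the 4 segments and both lengths among cells with 1 α and 1 β sequence, it was the only combination in 9 of 10 mice. The next most widespread, 3 combinations, were in 4 mice, and 10866 were in 1 mouse.

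The α CDR3 is printed 5′ to 3′ for the family's largest clone in the 5 chimeras with most of its cells, with the bases that differ from the clone of WT mouse 12 in capitals.
WT mouse 12, α: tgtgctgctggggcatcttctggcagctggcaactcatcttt
WT mouse 36, α: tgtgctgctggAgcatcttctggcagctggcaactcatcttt
WT mouse 14, α: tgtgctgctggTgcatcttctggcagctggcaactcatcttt
564Igi mouse 24, α: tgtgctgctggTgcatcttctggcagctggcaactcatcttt
564Igi mouse 21, α: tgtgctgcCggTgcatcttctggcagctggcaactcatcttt
The α sequences thus differed from the WT mouse 12 clone at 1 or 2 bases, close to the border between the V and J segments.

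These clones had 224, 12, 7, 130 and 25 receptor cells with 1 α and 1 β sequence in the order printed, and the clone of WT mouse 14 had 0 such activated cells. With cells of extra sequences counted too, the clones of WT mouse 12 and 564Igi mouse 24 had 226 and 131 receptor cells. The β CDR3 of the same clones is printed with capitals in the same sense.
WT mouse 12, β: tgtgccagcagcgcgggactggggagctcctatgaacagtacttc
WT mouse 36, β: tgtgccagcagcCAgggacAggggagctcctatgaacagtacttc
WT mouse 14, β: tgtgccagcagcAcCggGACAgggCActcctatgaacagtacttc
564Igi mouse 24, β: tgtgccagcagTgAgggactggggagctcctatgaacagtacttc
564Igi mouse 21, β: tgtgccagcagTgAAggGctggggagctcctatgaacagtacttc
The β sequences differed from the WT mouse 12 clone at 2 to 8 bases. The clones of 564Igi mice 24 and 21 had the same CDR3 amino acid pair from different bases, so they were separate rearrangements.

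The family held 448 receptor cells with 1 α and 1 β sequence, in 15 clones with 13 CDR3 pairs. The cells were spread very unevenly over the mice, with 231 in WT mouse 12, 150 in 564Igi mouse 24, 25 in 564Igi mouse 21 and 22 in WT mouse 36. The other mice held 7 or fewer, and WT mouse 23 held 0. Of its 142 activated Tfh cells, 137 belonged to expanded clones and 1 to a singleton. The family made up 29.8% of the expanded activated cells with 1 α and 1 β sequence in WT mouse 12 and 14.9% in 564Igi mouse 24, against at most 2.54% in the other 8 mice.

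**Figure D1:**
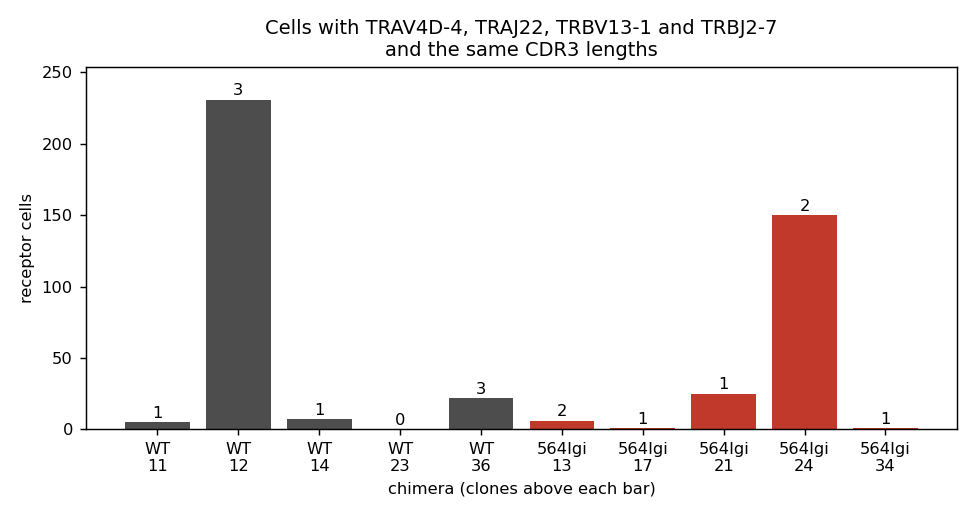
Number of receptor cells with 1 α and 1 β sequence per chimera with TRAV4D-4, TRAJ22, TRBV13-1 and TRBJ2-7 and CDR3 lengths of 42 and 45 bases (bars), with the number of clones above each bar. WT chimeras are in gray and 564Igi chimeras in red. WT mouse 12 with 231 and 564Igi mouse 24 with 150 cells hold most of the 448 cells.

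No measure of receptor usage passed an adjusted p of 0.05 between expanded and singleton cells. Among cells with 1 α and 1 β sequence, the CDR3α was 13.5 ± 0.293 amino acids long in expanded and 13.7 ± 0.154 in singleton cells (SD, n = 10, exact sign-flip test, p = 0.0312, adjusted p = 0.0625), shorter in 9 of 10 mice. The CDR3β was 14.1 ± 0.355 and 13.9 ± 0.109 amino acids long (exact p = 0.0664, adjusted p = 0.0664), longer in 8 of 10 mice. The differences with clones weighted equally were -0.108 for CDR3α, shorter in 6 of 10 mice, and 0.107 amino acids for CDR3β, longer in 7 of 10 (exact p = 0.129 and 0.0898). Of 13 TRAV families, TRAV16 had the smallest p with cells weighted equally, at 1.71% of expanded and 2.80% of singleton cells (exact p = 0.0625, adjusted p = 0.521), and TRAV9 with clones weighted equally, at 5.42% and 8.01% (exact p = 0.0156, adjusted p = 0.203). Of 16 TRBV segments, with cells weighted equally, TRBV31 had the smallest p, with 3.29% ± 1.90 of expanded and 5.65% ± 2.86 of singleton cells (SD, n = 10, exact p = 0.0312, adjusted p = 0.5).

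Gene expression was then compared between the groups within mice. Levels are means over cells of log2(corrected count + 1), so differences are on that scale and understate the change of low genes. Of 9842 genes tested, 130 were called with limma at an adjusted p below 0.01 and a difference above 0.1, which is 1.32% of the genes. Of these, 59 were higher in expanded clones (0.599%) and 71 lower (0.721%). The levels of the groups did not overlap over mice for 2 of the 9842 genes (0.0203%), *Foxp3* and *Herc3*, neither of them called, and the differences were read within mice. Of the 130 genes, 73 had the same sign in 10 of 10 mice, against 305 of all 9842 genes tested. The 130 genes were called on the differences of these same mice, which favors equal signs, so the counts are a description. The median difference of all genes tested was -0.0059.

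When the cells of a clone were averaged before the mouse mean was taken, so that small and large clones weighed the same, 73 genes were called. Of these, 61 were among the 130. Only activated cells were averaged, so a clone with few of them weighed as much as the largest, with 117. Of the 801 expanded clones, 307 had 5 or more activated cells. The weight thus moved toward clones with few activated cells, and the part of this in the differences was not tested. The difference with clones weighted equally is given below beside the main value of called genes. With the mouse term left out of the model, so without pairing, 2 genes were called. Neither direction was favored by all scales. The share of called genes that were higher was 45.4%, and it was 62.0% of 121 genes when the groups were matched on raw UMIs and 57.1% of 312 genes when counts were averaged before the logarithm.

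The largest rise was in *Srgn* (chr10:62493833-62527451, minus strand), which encodes serglycin, the proteoglycan that packs the contents of secretory granules. Its level in expanded cells was 2.58, 2.56, 2.87, 2.88 and 2.86 in WT chimeras 11, 12, 14, 23 and 36 and 3.12, 2.82, 2.90, 2.98 and 2.81 in 564Igi chimeras 13, 17, 21, 24 and 34. In singletons it was 1.96, 2.09, 2.68, 2.26 and 2.41 in WT and 2.85, 2.41, 2.64, 2.49 and 2.55 in 564Igi chimeras, in the same order of mice. Expanded cells were higher in every mouse, by 0.19 to 0.62, and the lowest expanded values lay below the highest singleton ones. The mean difference was 0.41 ± 0.04 (SE, n = 10, limma, adjusted p = 3.92e-08), and 0.37 with clones weighted equally.

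*Ctsb* (chr14:63122462-63145923, plus strand), which encodes the lysosomal protease cathepsin B, was next. In expanded cells its level was 1.58, 1.72, 1.88, 1.75 and 2.03 in WT and 1.90, 1.71, 1.75, 1.84 and 1.97 in 564Igi chimeras. In singletons it was 1.10, 1.26, 1.58, 1.20 and 1.54 in WT and 1.61, 1.30, 1.54, 1.49 and 1.68 in 564Igi chimeras. WT mice 11, 12 and 23 had the lowest singleton values, and all WT mice but mouse 14 had wider gaps than any 564Igi mouse. The mean difference was 0.39 ± 0.03 (SE, n = 10, limma, adjusted p = 1.44e-08), and 0.24 with clones weighted equally. Of the 307 clones with 5 or more activated cells, 80.1% had a mean *Ctsb* level above that of the singletons of their mouse.

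*Pdcd1* (chr1:94038305-94052553, minus strand) rose in expanded clones of every mouse. Its level was 1.23, 1.79, 1.84, 1.57 and 1.77 in expanded cells of WT and 1.89, 1.69, 1.73, 1.57 and 1.80 in those of 564Igi chimeras. In singletons it was 0.79, 1.09, 1.71, 0.95 and 1.23 in WT and 1.54, 1.51, 1.59, 1.16 and 1.69 in 564Igi chimeras. The highest singleton value, in WT mouse 14, lay above the lowest 4 expanded values. The mean difference was 0.36 ± 0.05 (SE, n = 10, limma, adjusted p = 4.2e-06), 0.49 in WT and 0.24 in 564Igi chimeras, and 0.27 with clones weighted equally. PD-1 is also the antigen on which the cells were sorted, so cells with low PD-1 are missing from both groups.

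**Figure D2:**
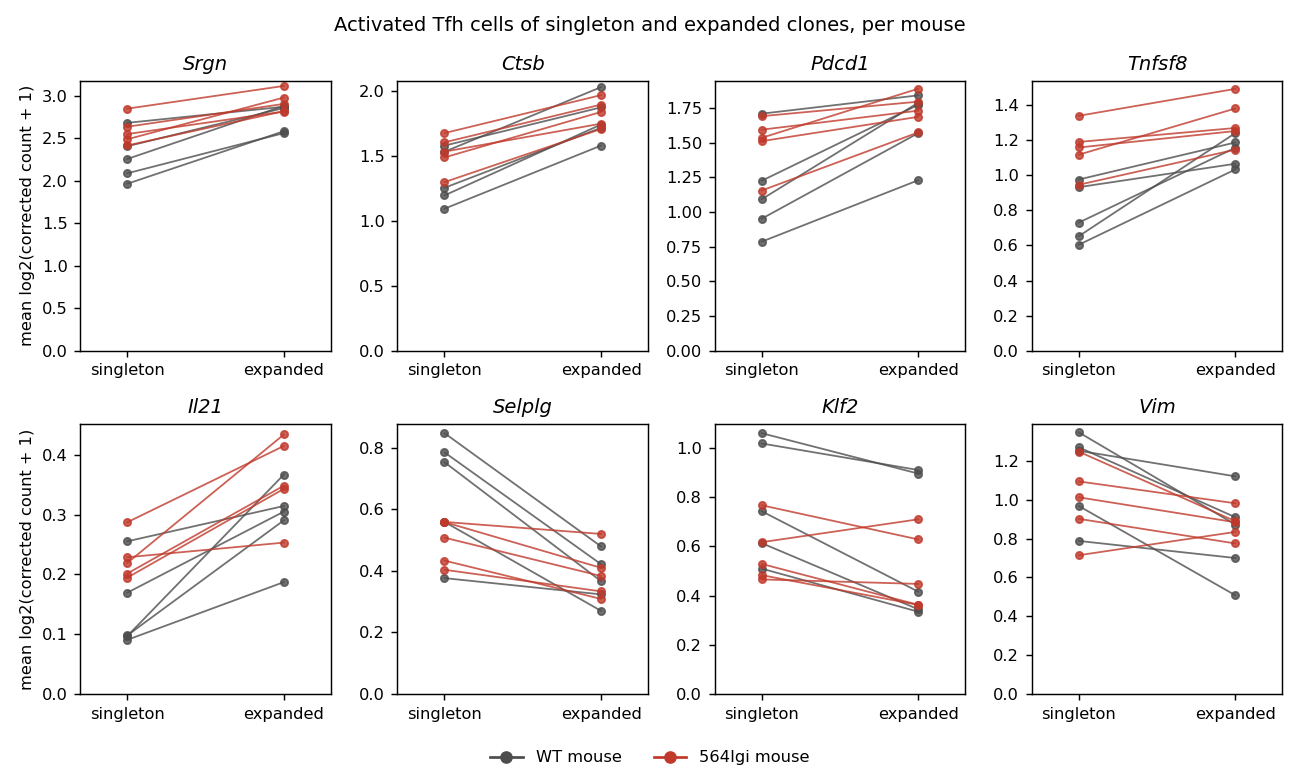
Mean log2(corrected count + 1) of 8 genes in activated Tfh cells of singleton and expanded clones. Points are mice, lines join the groups of a mouse, WT is gray and 564Igi red. *Srgn*, *Ctsb*, *Pdcd1*, *Tnfsf8* and *Il21* are higher and *Selplg* lower in expanded cells of all 10 mice, while *Klf2* and *Vim* are lower in 9.

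Some genes of follicular helper identity were higher in expanded clones. Of 30 listed genes 27 were tested, of which 10 rose, 0 fell and 17 were not called, with a median difference of 0.0679. Over all genes tested, 0.599% were called higher and 0.721% lower, which is the background for this list and those below. The lists were not matched to all genes in level. With clones weighted equally 6 of the 27 were called higher and 1 lower, *Slamf6*, a receptor of T and B cell contacts, at -0.11, and without the trend in the variance 4 were called higher. *Tnfsf8* (chr4:63831308-63861347, minus strand) had a level of 1.24, 1.03, 1.19, 1.16 and 1.07 in expanded cells of WT and 1.49, 1.15, 1.27, 1.38 and 1.25 in those of 564Igi chimeras. In singletons its level was 0.65, 0.60, 0.98, 0.73 and 0.93 in WT and 1.34, 0.95, 1.19, 1.12 and 1.16 in 564Igi chimeras. All WT singletons lay at or below 0.98 and all 564Igi singletons at or above 0.95. The difference was 0.26 ± 0.04 (SE, n = 10, limma, adjusted p = 1.67e-05), but it was 0.09 and no longer called with clones weighted equally. *Icos*, the costimulator by which B cells sustain Tfh cells, rose by 0.20 and *Maf*, a transcription factor that drives cytokine expression in Tfh cells, by 0.19, with 0.15 and 0.17 for clones weighted equally. *Cxcr5*, the receptor that leads cells into the follicle, was named because it was the other antigen of the sort, and rose by 0.11 (0.07 with clones weighted equally, not called). *Bcl6* differed by -0.0021 and was not called.

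*Il21* (chr3:37222759-37232636, minus strand), the cytokine with which Tfh cells drive germinal center B cells, was singled out after its values were seen. A count of it was found in 23.1%, 14.8%, 26.6%, 28.4% and 24.8% of expanded cells in WT and in 32.3%, 27.1%, 28.4%, 31.3% and 20.5% in 564Igi chimeras. In singletons the shares were 8.44%, 7.89%, 21.1%, 8.19% and 14.7% in WT and 22.1%, 16.2%, 16.7%, 17.1% and 19.3% in 564Igi chimeras. Expanded cells had the higher share in 10 of 10 mice. The mean was 25.7% ± 5.21 against 15.2% ± 5.31 (SD, n = 10, exact sign-flip test, p = 0.00195, the smallest that 10 mice allow, adjusted p = 0.00725). In Tfr cells, which make little IL-21, the share was 6.09% at a median of 3468 raw UMIs per cell, against 3513 in expanded and 3921 in singleton cells. Thinned to 2000 corrected counts in each cell, with 0 cells left out, the shares were 16.4%, 8.93% and 3.63%, and expanded cells were higher in 9 of 10 mice. The level rose by 0.14 ± 0.02 (SE, n = 10, limma, adjusted p = 7.16e-07) and by 0.09 with clones weighted equally, which is under the limit of 0.1. *Il4*, the other main cytokine of Tfh cells, was found in 11.2% and 13.9% of expanded and singleton cells (exact p = 0.307).

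Inhibitory receptors, which damp T cells after activation, were mixed. Of 13 tested, *Pdcd1*, *Lag3* and *Tigit* rose, *Cd96* fell and 9 were not called, with a median of 0.0334. *Lag3*, a receptor for MHC class II, had a level of 0.89 ± 0.32 in expanded and 0.64 ± 0.29 in singleton cells (SD, n = 10), a rise of 0.25 that was 0.19 with clones weighted equally. *Tigit*, a receptor for nectin-like ligands, rose by 0.20 (0.25 with clones weighted equally). *Cd96*, another receptor of that ligand family, fell by 0.12 and was found in 8.63% against 18.5% of cells. With clones weighted equally it differed by -0.09, under the limit of 0.1. Without the trend in the variance, *Lag3*, *Tigit* and *Cd96* were not called (limma, adjusted p = 0.0187, 0.0183 and 0.0244).

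*Cd3e*, the chain of the TCR complex named above, rose by 0.28 ± 0.03 (SE, n = 10, limma, adjusted p = 1.58e-06), from a level of 2.73 to 3.02, and by 0.23 with clones weighted equally. Of 20 genes listed for receptor signals, *Cd5* and *Cd6* rose, 0 fell and 18 were not called, with a median of 0.0064, and 0 were called with clones weighted equally. *Cd5* and *Cd6* encode related membrane proteins that tune TCR signals. They rose by 0.22 and 0.19, and differed by 0.12 and 0.09 with clones weighted equally. *Egr1*, an early gene of TCR signals, differed by 0.09 (limma, adjusted p = 0.00724), under the limit. *Nfkbia* differed by 0.09 as well (limma, adjusted p = 0.0861).

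Among regulatory T cell genes 19 were tested, and *Tnfrsf4*, which encodes the costimulator OX40 and is also found on activated helper cells, was the only gene called. It rose by 0.21 (0.23 with clones weighted equally). *Foxp3* (chrX:7573644-7595245, plus strand) was low in both groups. A count was found in 6.29%, 4.66%, 5.76%, 5.16% and 4.66% of expanded cells in WT and in 3.13%, 7.07%, 3.25%, 4.41% and 2.41% in 564Igi chimeras. In singletons it was found in 18.2%, 9.87%, 18.9%, 13% and 11.2% in WT and in 12.5%, 8.08%, 8.84%, 7.14% and 7.43% in 564Igi chimeras. Every singleton share lay above every expanded share. Thinned to 2000 corrected counts, the shares were 2.97% and 8.12%, lower in expanded cells of 10 of 10 mice (exact sign-flip test, p = 0.00195, adjusted p = 0.00391). The difference in level was -0.09 (limma, adjusted p = 4.2e-06), under the limit of 0.1, and it was -0.0076 with clones weighted equally. Without cells that had a *Foxp3* count, 149 genes were called, and 39 of the 40 called genes described by name, *Cxcr5* not counted, were among them. *Ikzf2*, another regulatory gene, differed by 0.12 (limma, adjusted p = 0.0123) and was higher in 7 of 10 mice, but it was called at 0.26 with clones weighted equally, as was *Capg*, an actin-capping protein gene, at 0.13.

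A few genes of lymph node homing, quiescence and memory fell. Of 15 tested, *Klf2*, *Actn1* and *Il7r* fell, 0 rose and 12 were not called, with a median of -0.0608. *Klf2*, a factor that keeps T cells quiescent and recirculating, fell by 0.14, and *Il7r*, the receptor of the survival cytokine IL-7, by 0.11 (-0.10 for both with clones weighted equally, where only *Il7r* was called). *Klf2* differed by -0.21 in WT and -0.07 in 564Igi chimeras, and *Il7r* by -0.16 and -0.06. Neither was called in 564Igi chimeras alone (limma, adjusted p = 0.121 and 0.0960) or without the trend in the variance (limma, adjusted p = 0.0319 and 0.0579). *Actn1*, an actin cross-linker, was found in 6.81% against 15.6% of cells and fell by 0.11 (-0.09 with clones weighted equally, not called). *Lef1*, a transcription factor of naive and memory-like T cells, differed by -0.08, under the limit, and by -0.04 with clones weighted equally (limma, adjusted p = 0.000242 and 0.151). *Tcf7*, the factor of memory-like T cells, differed by -0.06 (limma, adjusted p = 0.299), 0.07 in WT and -0.19 in 564Igi chimeras, and by -0.11 with clones weighted equally (limma, adjusted p = 0.0269).

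Of 20 genes of position and adhesion tested, *Ly6a* and *Cxcr5* rose, *Selplg*, *Itgb7* and *Gpr183* fell and 15 were not called, with a median of -0.0049. *Selplg* (chr5:113818536-113832644, minus strand) encodes PSGL-1, the selectin ligand that Tfh cells lose as they settle in the follicle. Its level in expanded cells was 0.48, 0.27, 0.32, 0.42 and 0.37 in WT and 0.38, 0.52, 0.33, 0.41 and 0.31 in 564Igi chimeras. In singletons it was 0.85, 0.56, 0.38, 0.79 and 0.75 in WT and 0.51, 0.56, 0.40, 0.56 and 0.43 in 564Igi chimeras. WT mice other than mouse 14 had the widest gaps, and WT mouse 14 and 564Igi mouse 17 the narrowest. The level fell by 0.20 ± 0.03 (SE, n = 10, limma, adjusted p = 1.47e-05), and by 0.11 with clones weighted equally, but it was not called without the trend in the variance (limma, adjusted p = 0.0166). *Gpr183*, the oxysterol receptor that draws cells to the rim of the follicle, fell by 0.13, and *Itgb7*, a homing integrin chain, by 0.13 (-0.10 and -0.04 with clones weighted equally, neither called). *Ly6a*, which encodes the surface protein Sca-1, rose by 0.31 (0.18 with clones weighted equally), 0.44 in WT and 0.17 in 564Igi chimeras.

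The S100, galectin and annexin list was divided. *S100a6* and *S100a11*, small calcium-binding proteins, rose, *S100a11* by 0.24 (0.22 with clones weighted equally), the intermediate filament gene *Vim* and the LIM protein gene *Crip1* fell, and 10 of 14 were not called. *S100a6* was the most uneven of the large rises. Its level in expanded cells was 2.32, 1.78, 1.93, 2.51 and 2.07 in WT and 2.34, 2.54, 2.24, 2.57 and 1.84 in 564Igi chimeras, and in singletons 1.61, 1.63, 1.66, 2.10 and 2.06 in WT and 2.04, 1.61, 2.0, 2.44 and 1.80 in 564Igi chimeras. The difference ran from 0.0037 in WT mouse 36 to 0.93 in 564Igi mouse 17, with a mean of 0.32 ± 0.06 (SE, n = 10, limma, adjusted p = 0.000446), and it was 0.33 with clones weighted equally. *S100a6* was not called without the trend in the variance (limma, adjusted p = 0.0439). It was called in 564Igi but not in WT chimeras alone (limma, adjusted p = 0.00081 and 0.0125). *Vim* and *Crip1* fell by 0.21 and 0.20, but differed by -0.08 and -0.05 with clones weighted equally, where neither was called and 4 genes of the list rose and 0 fell. With the groups matched on raw UMIs, *Vim* and *Crip1* differed by -0.09 and -0.11, and neither was called (limma, adjusted p = 0.0514 and 0.0523).

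Other genes among the largest rises were *Hif1a*, the transcription factor of the hypoxia response, at 0.25, *Cd82*, a tetraspanin, at 0.24, and the long non-coding RNA *Gm42031* at 0.24. These 3 genes rose by 0.17, 0.17 and 0.19 with clones weighted equally. *Gm42031* (chr8:85125872-85132289, minus strand) differed widely between mice, with an SD of 1.08 around a mean level of 1.45 in expanded cells. It rose by 0.15 in WT and 0.33 in 564Igi chimeras. Without the trend in the variance it was not called (limma, adjusted p = 0.0718). Of 16 glycolytic genes *Aldoa* and *Tpi1* rose, by 0.17 and 0.11, and 14 were not called, among them *Gapdh* and *Pkm* at 0.13 and 0.11 (limma, adjusted p = 0.0219 and 0.0263). With clones weighted equally *Aldoa* and *Tpi1* differed by 0.14 and 0.097 (limma, adjusted p = 0.0190 and 0.00192). Neither was called, *Tpi1* because it lay under the limit of 0.1. Of 15 heat shock and immediate early genes *Hsp90ab1* rose, by 0.13, and it was not called with clones weighted equally, at 0.09 (limma, adjusted p = 0.117).

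Among the largest falls, *Ms4a4b*, which encodes a membrane protein of T cells, fell by 0.24 (-0.33 with clones weighted equally). *Ass1*, an enzyme of arginine synthesis, fell by 0.20 (-0.06 with clones weighted equally, not called). *Rflnb*, which encodes a filamin-binding protein, fell by 0.19 (-0.18), and *Cnp*, a nucleotide phosphodiesterase gene best known from myelin, by 0.17 (-0.13). *Cnp* (chr11:100574904-100591729, plus strand) was found in 32.4% of expanded and 45.6% of singleton cells and was lower in 10 of 10 mice. Of 18 interferon-stimulated genes *Ifi27l2a* fell, by 0.19, and 17 were not called. With clones weighted equally *Ifi27l2a* differed by -0.0093. With the groups matched on raw UMIs it differed by -0.11 and was not called (limma, adjusted p = 0.0731).

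**Figure D3:**
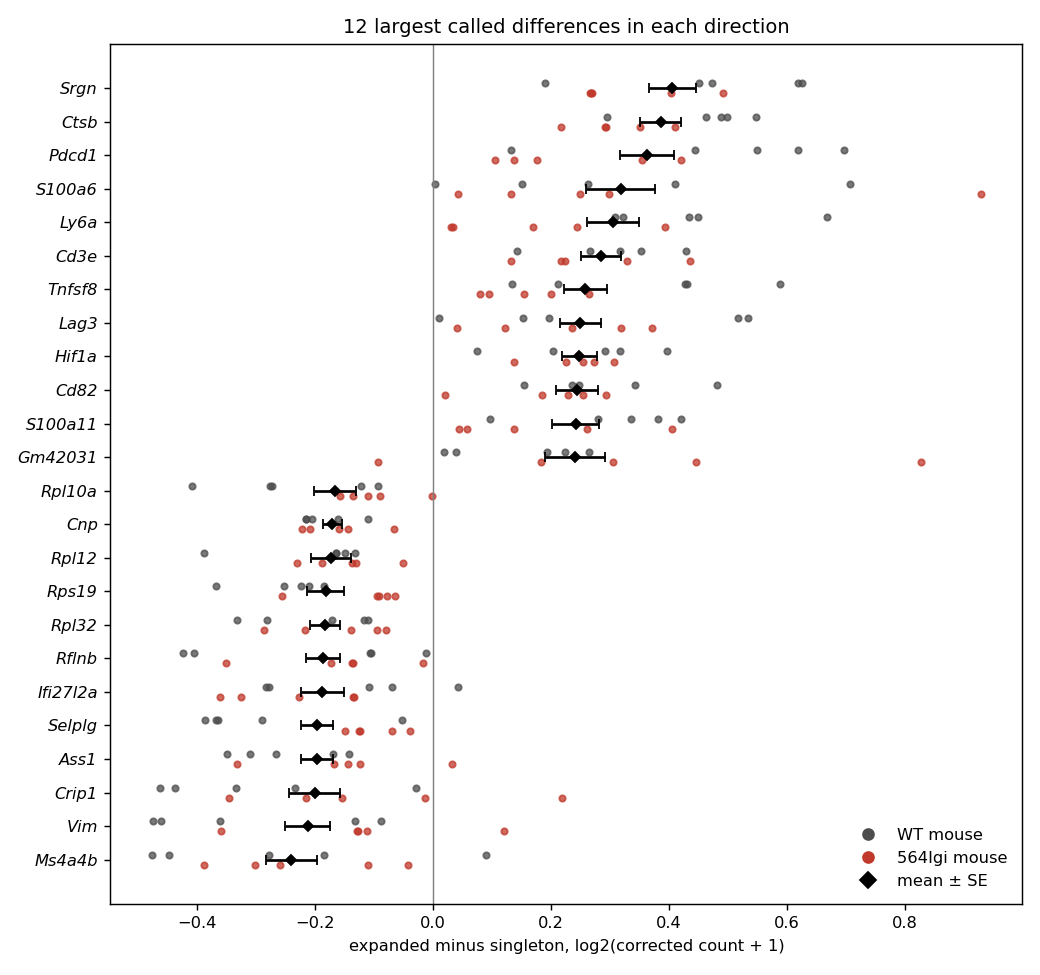
Difference in mean log2(corrected count + 1), expanded minus singleton, for the 12 genes with the largest called difference in each direction. Dots are mice (WT gray, 564Igi red), diamonds the mean with its SE from limma. *Srgn* has the largest rise, 0.41, and *Ms4a4b* the largest fall, -0.24, while *S100a6* and *Gm42031* each have a 564Igi mouse far above the rest.

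Ribosomal protein genes, a list drawn up after their values were seen, were lower in expanded clones. Of 81 tested, 27 fell and 0 rose, 80 had a mean below that in singletons, and the median difference was -0.0915. *Rpl32* was the lowest of them, with a fall of 0.18 ± 0.03 (SE, n = 10, limma, adjusted p = 1.67e-05) from a level of 3.70, and *Rps19*, *Rpl12* and *Rpl10a* fell by 0.18, 0.17 and 0.17. The differences of these 4 genes were -0.15, -0.14, -0.17 and -0.13 with clones weighted equally. With clones weighted equally 26 fell, with the groups matched on raw UMIs 23, and with counts averaged before the logarithm 7. Many ribosomal protein genes have near-identical pseudogenes, and how reads were divided among copies is not known. The percent of UMIs from ribosomal genes, computed by the authors before normalization, was lower too. It was 9.86% ± 0.427 against 10.7% ± 0.564 for the small subunit and 12% ± 0.577 against 13.1% ± 0.714 for the large one (SD, n = 10, exact sign-flip test, both p = 0.00195), lower in 10 of 10 mice.

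Depth differed between the groups as well. Expanded cells had a median of 3513 raw UMIs against 3921 in singletons, a difference of -407.5 ± 102 (SE, n = 10, exact sign-flip test, p = 0.00781, adjusted p = 0.0117), lower in 8 of 10 mice. The median number of genes was 1610 and 1706. The mitochondrial percent was 3.60% and 3.56% (exact p = 0.484). The authors' heat shock score was higher by 0.0295 in expanded cells and the S phase score by 0.0118, each in 9 of 10 mice (exact p = 0.00586), and the G2/M score by 0.0150, in 8 of 10 mice (exact p = 0.0332). The part of these scores in the differences was not tested. With the groups matched on raw UMIs, 121 genes were called, including 33 of the 40 described by name other than *Cxcr5*. *Vim*, *Crip1*, *Ifi27l2a*, *Itgb7*, *Actn1*, *Cd96* and *Rpl10a* were no longer called.

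Extra receptor chains bear on how the groups were made, since a cell with an extra listed chain matches fewer cells, so their numbers are given as a description. Exactly 1 α and 1 β sequence were listed for 79.7% ± 8.54 of expanded and 65.6% ± 6.75 of singleton cells (SD, n = 10), and 27.5% of singleton cells listed a chain that a larger clone of the mouse also had. A doublet or a stray chain can turn a cell of a large clone into a singleton, but how often it did was not tested. Cells of different clones can also share a chain, and these cases were not told apart. Without cells that listed more than 1 sequence of a chain, 155 genes were called, and without such singletons too, 191, with these 40 genes among the latter.

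Markers of other cells were near 0 in both groups. Of 11 B cell genes in the matrix 4 could be tested and 0 were called. Their summed corrected count was 0.112 per expanded and 0.138 per singleton cell, lower in all 10 mice, with *Cd22* as the most abundant. *Cd79b* was found in 1.64% and 2.98% of cells, below the 5.46% in Tfr cells, and *Cd79a*, which T cells lack and which thus gives a background level, in 0.144% and 0.146%. *Pax5*, a B cell factor, went the other way and was found in 1.66% and 0.798%, higher in 10 of 10 mice (limma, adjusted p = 0.0609). Of the myeloid genes *Cst3*, which T cells also express, made up 0.653 and 0.518 of a summed count of 0.660 and 0.523, and *Itgax* was at 0. *Cst3* differed by 0.06 (limma, adjusted p = 0.00809). The CD8 and NK genes summed to 0.0839 and 0.104, led by *Cd8b1*, with *Klre1* at 0, and the erythroid genes to 0.0091 and 0.0064, led by *Hbb-bs*. Of 7 MHC class II genes 2 were tested and 0 called, and *Cd74* differed by -0.02 (limma, adjusted p = 0.364). None of 13 effector and cytotoxic genes was called. *Gzmk*, a marker of effector Tfh cells, was found in 10.4% against 5.87% of cells and in 1.41% of Tfr cells. *Ccl5*, a chemokine of effector cells, was found in 5.34% and 5.41%, and *Nkg7* and *Cxcr6* differed by -0.02 and -0.03 (limma, adjusted p = 0.595 and 0.0430). Of 19 cytokine receptor genes *Il7r* fell, and *Ifngr1* was found in 8.35% against 14.3% of cells with a difference of -0.07, under the limit.

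Levels over 4 bins of clone size are given as a description, since the genes were picked for a difference between large and single clones. *Srgn* had a mean level of 2.43 in singletons, 2.61 in clones of 2 to 4 cells, 2.70 in clones of 5 to 9 and 2.88 in clones of 10 or more. *Pdcd1* ran through 1.33, 1.47, 1.60 and 1.71, and *Cnp* through 0.54, 0.44, 0.41 and 0.35. *Ctsb* made its largest step at the top, with 1.43, 1.56, 1.64 and 1.87. *Selplg* made most of its fall early and then stayed level, with 0.58, 0.45, 0.38 and 0.38. Clones of 2 to 4 cells against singletons gave 7 called genes, of which 2 were higher.

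**Figure D4:**
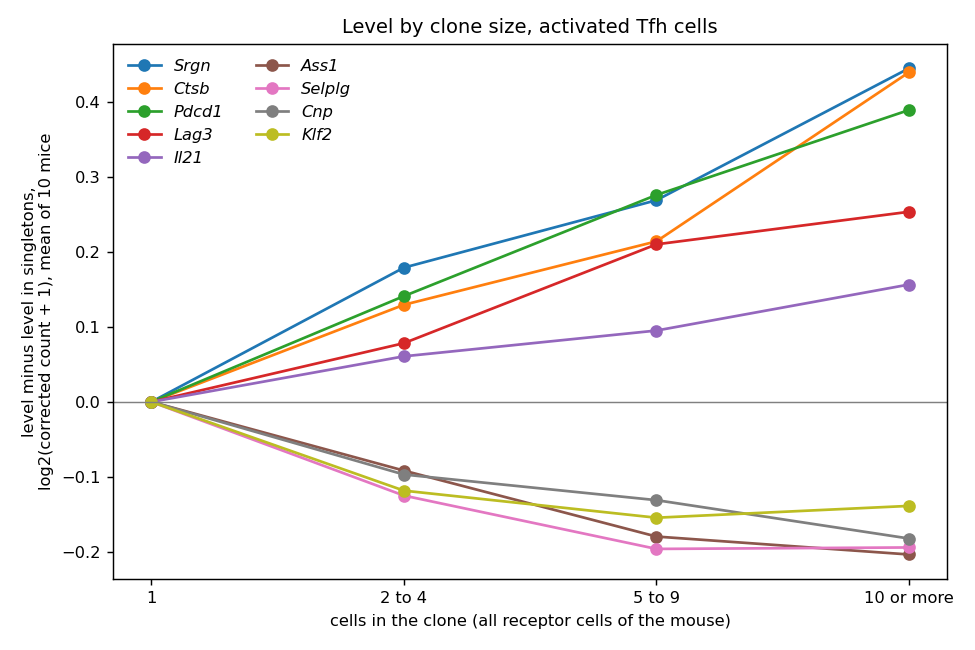
Mean level of 9 genes in 4 bins of clone size minus the level in singletons, log2(corrected count + 1), mean of 10 mice, without error bars. *Srgn*, *Ctsb* and *Pdcd1* climb over all bins, and *Selplg* and *Klf2* reach their low by clones of 5 to 9 cells.

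Single clones varied around these means. Among the 307 clones with 5 or more activated cells, the mean level of *Pdcd1* ran from 0.87 at the tenth to 2.34 at the ninetieth percentile, and 71.3% lay above the singletons of their mouse. For *S100a6* the same percentiles were 0.86 and 3.53, with 60.9% above. For *Selplg* and *Cnp* 19.9% and 17.6% lay above. The largest clones showed the same breadth. The family clone of WT mouse 12, whose CDR3 is printed above, had a *Pdcd1* level of 2.29 against 1.09 in the singletons of that mouse, and its relative in 564Igi mouse 24 had 2.47 against 1.16. Both were low in *Selplg*, 0.08 and 0.10, and in *Vim*, 0.14 and 0.08. The largest clone of 564Igi mouse 17 had 1.51 for *Pdcd1*, the level of its singletons, but 2.95 for *S100a6* against 1.61. The largest clone of WT mouse 36 had an *S100a6* level of 0.72 against 2.06. Without the largest clone of each mouse, 107 genes were called.

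The differences were compared between WT and 564Igi chimeras by an interaction term. With limma 0 of 9842 genes were called, which is 0%, and 704 had an unadjusted p under 0.05. *Tcf7* and *Selplg* were among the closest, each with an adjusted p of 0.151. *Selplg* differed by -0.29 ± 0.14 in WT and -0.10 ± 0.05 in 564Igi chimeras, and *Tcf7* by 0.07 ± 0.08 and -0.19 ± 0.08 (SD, n = 5, limma). Tested alone, 5 WT chimeras gave 99 called genes and 5 564Igi chimeras 59. A difference between the conditions was not detected for any gene with 5 mice in each, which does not show that they are alike.

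The same contrast was then set against Tfr cells of the same mice, with 3953 cells of expanded and 2972 of singleton clones. The model had mouse by cluster as a block, so the differences of both clusters in a mouse were not treated as a pair. Clones with cells in both clusters were not treated apart either. Of 9972 genes, 26 had a difference that was called as unequal between the clusters with limma, which is 0.261%, and 1010 had an unadjusted p under 0.05. *Tnfsf8* differed by 0.26 in activated Tfh and -0.04 in Tfr cells, a gap of 0.30 ± 0.04 (SE, n = 10, limma, adjusted p = 0.000148). *Cd5* had a gap of 0.26 and *Il21* of 0.12 in the same direction. The gap was negative for *Crip1*, which differed by -0.20 in activated Tfh and 0.12 in Tfr cells, and for *Selplg*, with -0.20 and 0.04. *Rflnb*, *Itgb7* and *Cnp* had gaps of -0.19, -0.19 and -0.10.

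The gaps depended on how clones were weighted. With clones weighted equally 35 genes were called, but 16 of the 26 kept their sign and 1, *Rflnb* with a gap of -0.18, was called again. *Tnfsf8* then differed by 0.09 in activated Tfh and 0.26 in Tfr cells, a gap of -0.17, and *Itgb7* and *Il21* changed sign as well, to 0.05 and -0.03. Without the trend in the variance 0 genes were called, at adjusted p of 0.0231 for *Tnfsf8* and 0.0235 for *Cd5*. *Pdcd1* and *Ly6a* rose with clone size in activated Tfh and had differences of 0.25 and 0.45 in Tfr cells, and neither gap was called.

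**Figure D5:**
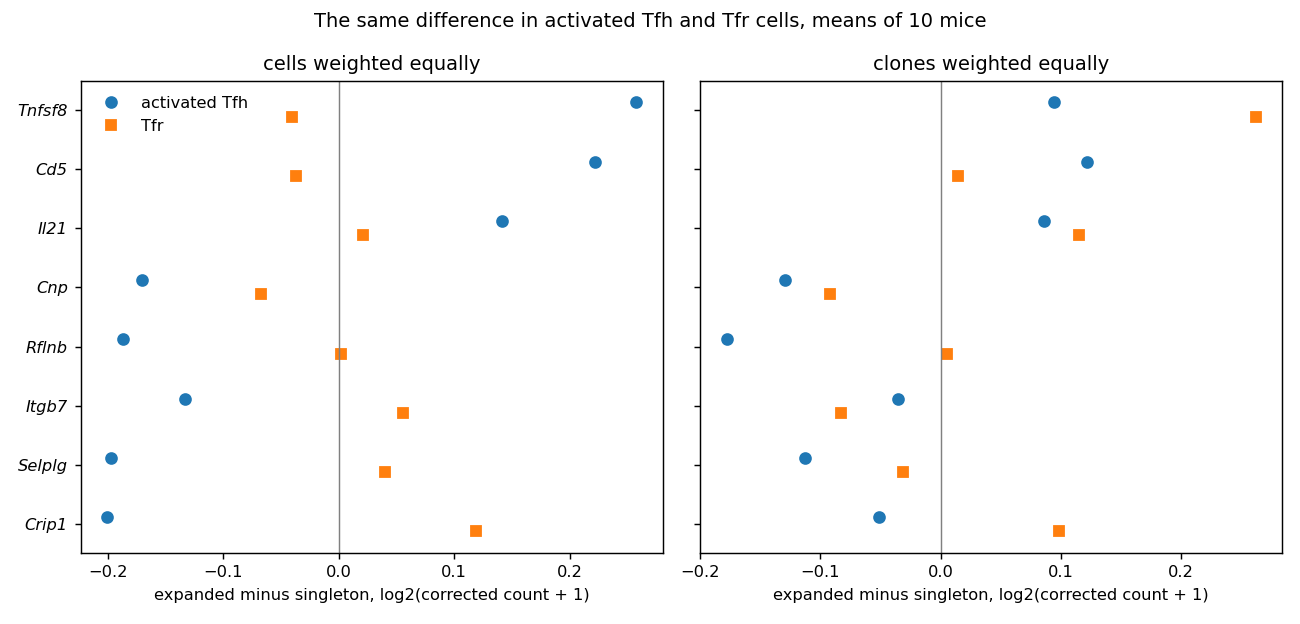
Expanded minus singleton in log2(corrected count + 1) for 8 genes, means of 10 mice without error bars, in activated Tfh (circles) and Tfr cells (squares), with cells (left) or clones (right) weighted equally. The order of *Tnfsf8*, *Il21* and *Itgb7* turns between the panels, while *Rflnb* keeps its gap.

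Against *Sostdc1* Tfh cells, which 7 mice had in sufficient number, 0 of 9683 genes were called, which is 0%, with 694 at an unadjusted p under 0.05 by limma. The difference of *Pdcd1* was 0.02 there and that of *Tnfsf8* 0.21. With 391 singleton cells in that cluster over all mice, the comparison was less precise.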

How the data were processed

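Splenic CD4+CXCR5+PD1+ cells of 10 chimeras were profiled by 10x single-cell RNA and TCR sequencing. Reads were mapped by the authors to GRCm38 using Cell Ranger 4.0.0, and they removed cells by gene, read, mitochondrial, ribosomal and cell cycle limits in Seurat 3.1.4. They also removed TCR and BCR genes and normalized each condition separately with sctransform. The deposited matrix of 13798 genes holds the natural log of the corrected count plus 1, and 100% of the values were whole after the log was undone (tolerance 1e-06). The deposited cell table gives raw UMI and gene counts, the mitochondrial and ribosomal percent, heat shock and cell cycle scores, and cluster names. Corrected counts are not raw counts, so no count model was used. The deposited TCR table names at most the leading 2 values per field, so receptor measures used cells with 1 α and 1 β sequence. No doublet caller was run, and free RNA was not removed.

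Values were converted to log2(corrected count + 1) and a mean was taken per mouse and group of at least 20 cells. Genes found in 1% of cells in at least 5 mice entered limma 3.58.1 under R 4.3.3, with a variance trend and mouse as a block. This pairing comes from the design, since both groups were cells of the same mouse. Interaction terms tested the difference between conditions and between clusters. Between clusters the block was mouse by cluster, which pairs the groups within a cluster but not the clusters of a mouse. P values were adjusted by Benjamini-Hochberg. Single values were compared by exact sign flips over 10 mice (two-sided, smallest p 0.00195) or exact permutation of the conditions (smallest p 0.00794). On simulated data over 9842 genes, 100% of genes changed by 0.15 or 0.3 were recovered for expanded against singleton cells, with 0% wrong calls. For the difference between conditions, 80% and 99% were recovered, with 1.10% wrong calls. The changed genes were drawn at random, with normal noise and the same change in every mouse. The median SE of all genes tested was 0.0092, so changes in genes that vary more can be missed. *Izumo1r*, of the follicular helper list, differed by 0.19 and was not called (limma, adjusted p = 0.0148). Python 3.11.15 with numpy 2.4.6, pandas 2.3.3, scipy 1.17.1 and matplotlib 3.10.9 was used.

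Named genes were the 12 with the largest called difference in each direction and the same sign in at least 9 mice, genes the study names for clone size, and up to 4 members of each list. Not all genes that this rule gave are described. The groups, lists and tests were chosen with earlier results of these data known. Intervals of this kind cover the spread between mice only, and a share of cells with a count is limited by depth. Alternatives covered the filter, thresholds, scale, weights, clone definition, depth, receptor chains and mice left out.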

Additional observations from a re-analysis of the deposited data

Results flagged for a closer look

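In 10 of 140 groups of 5 mice (7.14%) a single mouse stood far from the other 4, measured as its gap to the nearest mouse over the range of the group, and chance gives about 1 in 20. Among the differences between expanded and singleton cells on the log2 scale, the mouse that stood apart had 0.928 for *S100a6* (564Igi mouse 17), -0.255 for *Rps19* (564Igi mouse 24), -0.388 for *Rpl12* (WT mouse 23) and -0.359 for *Gpr183* (564Igi mouse 17). For *Cd5* it had 0.458 among WT (mouse 12) and 0.491 among 564Igi chimeras (mouse 34). For *Hsp90ab1* WT mouse 14 had -0.0977, and the same mouse had a difference of -0.0108 in the heat shock score. WT mouse 12 had a difference of 0.410 in the mitochondrial percent, and 564Igi mouse 13 a difference of 0.256 amino acids in the CDR3α length.

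Between activated Tfh and Tfr cells, the difference of expanded minus singleton was unequal by the interaction term of limma for 8 genes described above. The gap, activated Tfh minus Tfr, was 0.299 for *Tnfsf8*, 0.260 for *Cd5* and 0.121 for *Il21*. It was -0.319 for *Crip1*, -0.237 for *Selplg*, -0.189 for *Itgb7*, -0.188 for *Rflnb* and -0.104 for *Cnp*. With clones weighted equally, *Rflnb* alone of these genes was called again, and the gaps of *Tnfsf8*, *Il21* and *Itgb7* changed sign. Without the trend in the variance 0 genes were called.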

How the results depend on the processing

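All 130 genes called for expanded against singleton cells kept their sign in every alternative except clones of 2 to 4 cells against singletons, where 129 did. The alternatives reuse the mice on which these genes were called. Against 130 genes, 56 were called without the trend, 38 without the filter on low genes, 22 at a limit of 0.2 (19 higher), 854 at an adjusted p below 0.05 with no limit (202 higher), 312 with counts averaged before the logarithm, 73 with clones weighted equally, 7 for clones of 2 to 4 cells, 2 with no replicate block and 59 in 564Igi chimeras alone (34 higher). Leaving out each mouse gave 91 to 135, and mice 34 and 36, whose library numbers stand apart, 97. The cause of these changes was not tested, apart from those made by other thresholds or fewer mice. Of the 40 called genes described by name other than *Cxcr5*, 16 were called without the trend, 24 with clones weighted equally, 31 in WT and 24 in 564Igi chimeras alone, and 35 to 40 with a mouse left out. The 16 called without the trend were *Srgn*, *Ctsb*, *Pdcd1*, *Cd3e*, *Hif1a*, *Cd82*, *S100a11*, *Il21*, *Tnfrsf4*, *Cd6*, *Cnp*, *Ass1*, *Actn1*, *Rpl32*, *Rps19* and *Rpl12*. For the difference between conditions, leaving out each mouse gave 0 to 3 genes, 3 without WT mouse 14. For activated Tfh against Tfr the count was 0 without the trend, 92 at an adjusted p below 0.05 with no limit and 12 to 26 with a mouse left out, with 13 without WT mouse 11, 12 without WT mouse 23, and 14 and 17 without 564Igi mice 13 and 17. For *Sostdc1* Tfh it was 1 without the trend, 1 with clones weighted equally and 2 at an adjusted p below 0.05 with no limit. The difference in the expanded share between conditions ran from -6.10 to -0.962 percentage points. Signs turned for genes that were not called, namely *Cd79b* (0.0018 with clones weighted equally), *Tcf7* (0.0042 in clones of 2 to 4 cells and 0.067 in WT chimeras alone), *Gzmk* (-0.011 in clones of 2 to 4 cells) and *Ikzf2* (-0.015 with size counted in the cluster only). *Cd74* turned to 0.044 with clones weighted equally, 0.011 without extra chains, 0.025 without shared chains (chosen after seeing the data), 0.0015 without *Foxp3*-detected cells, 0.0039 with UMIs matched and 0.0032 in 564Igi chimeras alone. The gap to Tfr turned for *Tnfsf8* (-0.17), *Itgb7* (0.047) and *Il21* (-0.029) with clones weighted equally. Receptor measures over cells with extra chains could not be given. Depth limits what is seen of low genes, and a singleton is a clone seen on 1 sampled cell.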
